A study of Mus musculus with 6 samples.

Results

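The guidance genes considered here are the ephrins and their Eph receptors, the semaphorins and their plexin receptors, the Slits and their Robo receptors, and the netrins and the netrin receptors *Dcc*, *Neo1* and the Unc5 genes. They were selected by symbol, as the genes of the deposited table with symbols of class 3 to 7 semaphorins or of the other 7 families. The rule itself reads no measured value, but the members were chosen with earlier results of these data known. The rule found 68 of the 23420 genes of the table, made up of 14 Eph receptors, 8 ephrins, 20 semaphorins, 9 plexins, 3 Slits, 4 Robos, 4 netrins and 6 netrin receptors. RNA was measured in whole mouse embryonic lungs at E11.5dpc (dpc, days post coitum), in 3 control pools with the genotype Raptorf/+; ShhCre/+ and 3 mutant pools with the genotype Raptorf/f; ShhCre/+. *Rptor* (Raptor) encodes the scaffold subunit of mTORC1, a kinase complex that couples growth to nutrients. The Cre recombinase is expressed from *Shh*, which at this stage is active in the epithelium of the lung, so the mesenchyme, vessels, nerves and mesothelium in a pool keep their floxed alleles. Control pools carried the same Cre and 1 floxed allele. Each library was made from several lungs of 1 genotype, and p-values measure the spread between such pools.

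Guidance cues are secreted or membrane-bound proteins that were first known for steering axons, and they also pattern vessels, epithelia and mesenchyme. Ephrins are bound to the cell surface and signal to Eph receptor tyrosine kinases on a neighbouring cell, while the ephrin-bearing cell can itself receive a signal. Class 3 semaphorins are secreted and act through plexins, mostly with a neuropilin as co-receptor, whereas semaphorins of classes 4 to 7 are mostly attached to the membrane and bind plexins directly. Slits repel through Robo receptors, and netrins attract or repel according to whether the cell carries Dcc, Neogenin or an Unc5 receptor. In the embryonic lung, semaphorins, Slits and netrins are known as signals between epithelium, mesenchyme, vessels and the nerves that grow in along the airways.

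The values of the table are normalized counts, that is, reads per gene scaled by the size factor of each library. Reads recovered from these values numbered 20197642 to 21276090 per library. Differences are given as log2 fold changes of mutant over control from limma on log2(normalized count + 1), with p-values adjusted by the Benjamini-Hochberg method over all 17168 genes tested, and this scale understates the change of low genes. For *Rptor* itself, normalized counts were 2199 ± 77.0 (SD, n = 3) in control and 2103 ± 69.1 (SD, n = 3) in mutant pools, which overlapped (log2 fold change -0.06, limma adjusted p = 0.584). The summed level of 20 epithelial marker genes was 22410 to 27075 in the control pools and 18716 to 19940 in the mutant pools, and 18 of these 20 genes had a negative log2 fold change (7 with a limma adjusted p under 0.05). The sum of 15 mesenchymal markers was 114819 to 121015 in control and 137252 to 145246 in mutant pools, that of 10 endothelial markers 13105 to 14826 and 14952 to 15757, that of 7 smooth muscle markers 7753 to 9452 and 10086 to 11066, and that of 6 mesothelial markers 3947 to 4588 and 4720 to 5223. The sum of 7 cardiac muscle markers was 1146 to 1254 in control and 866 to 945 in mutant pools, and that of 12 neural markers overlapped, at 2806 to 3188 and 2376 to 2985. Of the 15 mesenchymal markers 13 had a positive and 2 a negative log2 fold change, with a median of 0.17. Most of their sum came from *Col1a1*, *Col1a2* and *Col3a1*, with means of 19800, 24270 and 27391 in control and 27828, 30639 and 32858 in mutant pools. No marker of any list was at 0 in any library. In such bulk samples, fewer cells of a type and less RNA per cell cannot be told apart, and the part of these marker lists in the results that follow was not tested.

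**Figure D1:**
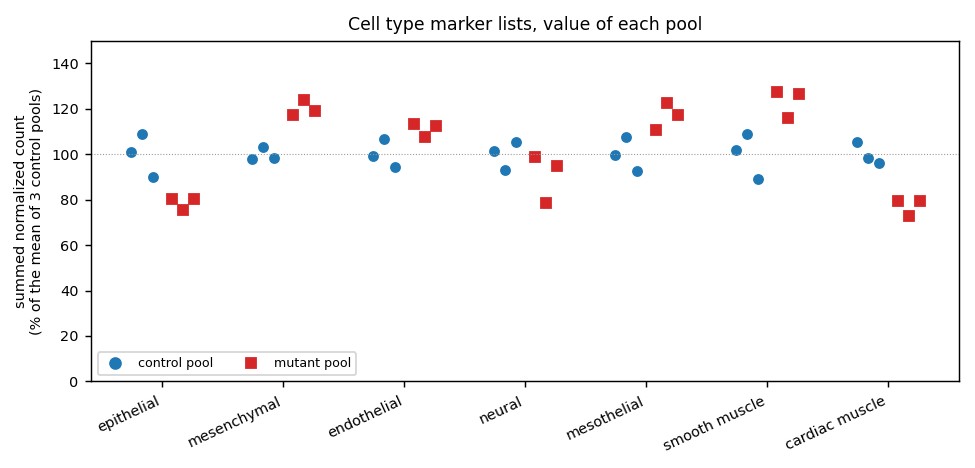
Summed normalized counts of 7 lists of cell type marker genes in each of the 3 control and 3 mutant pools, as percent of the control mean, with each point a pool. The epithelial and cardiac sums of all mutant pools lie below those of all control pools, the mesenchymal, endothelial, smooth muscle and mesothelial sums lie above, and the neural sums overlap.

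All 68 guidance genes passed the filter for testing (3 or more libraries with a value of 1 or above), and only *Epha6*, *Epha10* and *Ntn5* had a mean under 10. Per kilobase of exon, the level of the B-class plexin *Plxnb2* was 1399 normalized counts in control and 1460 in mutant pools. Next to it stood the vascular receptors *Ephb4* (1208 and 1325 per kilobase) and *Plxnd1* (1158 and 1369 per kilobase). Among ligands, *Efna2* (826 and 839 per kilobase), *Efnb1* (820 and 971) and *Slit3* (569 and 569) had the high levels, and in the netrin branch the receptor *Neo1* stood at 703 and 704 per kilobase. The neighbours *Efna2* and *Efnb1* differed in the controls by less than their spread between pools. Within a family the levels were far apart: *Slit2* was at 40.8 per kilobase and *Slit1* at 4.55 in control pools, and *Robo1* was at 215 against 1.94 for *Robo3*.

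**Figure D2:**
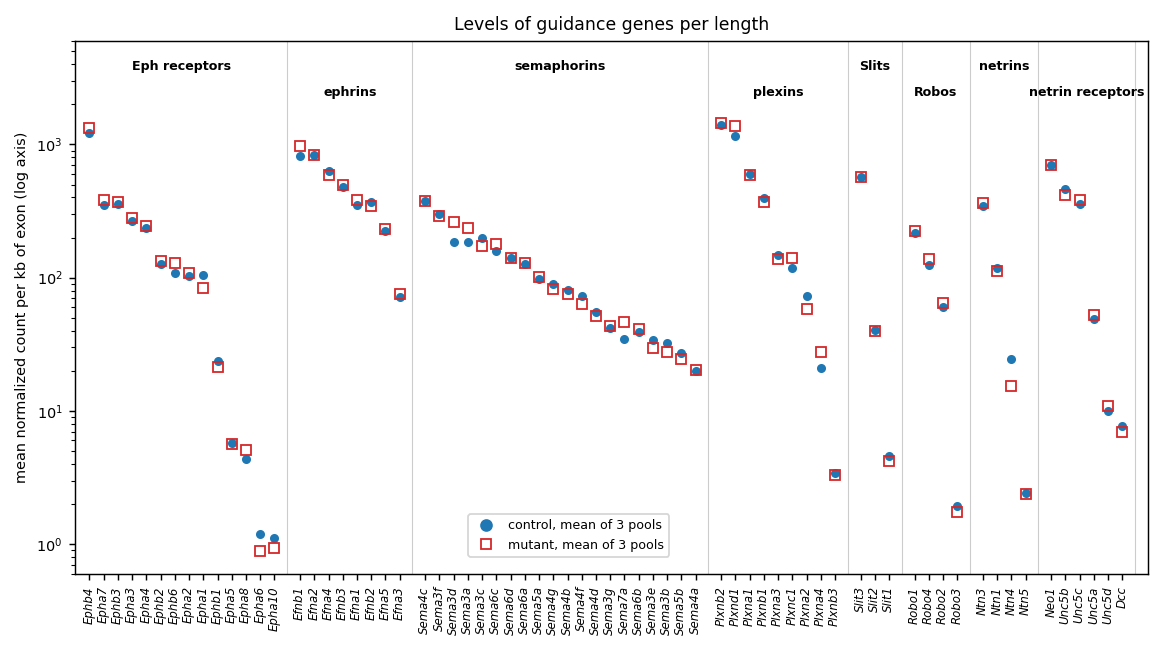
Mean normalized count per kilobase of exon (log axis) of each of the 68 guidance genes, grouped by role and ordered by level, with filled circles for the 3 control pools and open squares for the 3 mutant pools. The levels within a role span more than those between genotypes, and circle and square lie close together for most genes.

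Of the 68 guidance genes, 1 passed an adjusted p under 0.05 in limma, against 0.501% of all genes tested. This was *Sema3d*, which rose in the mutant pools. An unadjusted p under 0.05 was reached by 11 genes with higher values in the mutant pools (16.2% of the 68, against 6.67% of all genes tested) and by 4 with lower values (5.88%, against 6.89%). This split moved with the pool left out. It was 15 higher and 9 lower without control pool 2, where 1370 and 1346 of all 16889 genes tested reached this p. Without control pool 3 it was 18 and 4, against 1422 and 1458 of 16993 genes. Leaving out control pool 1 gave 9 and 4, and mutant pool 1, 2 or 3 gave 10 and 3, 10 and 3, and 8 and 3. In these 4 fits, 728 to 914 of all genes were higher and 838 to 987 lower at this p. In 11 of the 68 every mutant pool lay above every control pool (16.2%, against 9.77% of all genes tested), and in 5 every mutant pool lay below (7.35%, against 10.5%). The share of genes with a mean of at least 10, where differences are measured more precisely, was larger among the guidance genes (65 of 68) than among all genes tested (14584 of 17168). With only genes of at least 10 in every library, 11 of 64 guidance genes were higher and 4 lower at an unadjusted limma p under 0.05. Of all 13951 genes in that fit, 1068 were higher and 1055 lower. The log2 fold changes ran from -0.67 to 0.48 with a median of 0.03, against -0.0021 for all genes tested, and 47.1% of the guidance genes were within 0.1 of no change, against 49.8% of all genes. On recovered reads, edgeR called 1 of the guidance genes (0.539% of all genes it tested) and DESeq2 called 4 (1.99% of the 13977 genes to which it gave an adjusted p), *Sema3d*, *Sema3a*, *Plxnd1* and *Efnb1*, all higher in the mutant pools.

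**Figure D3:**
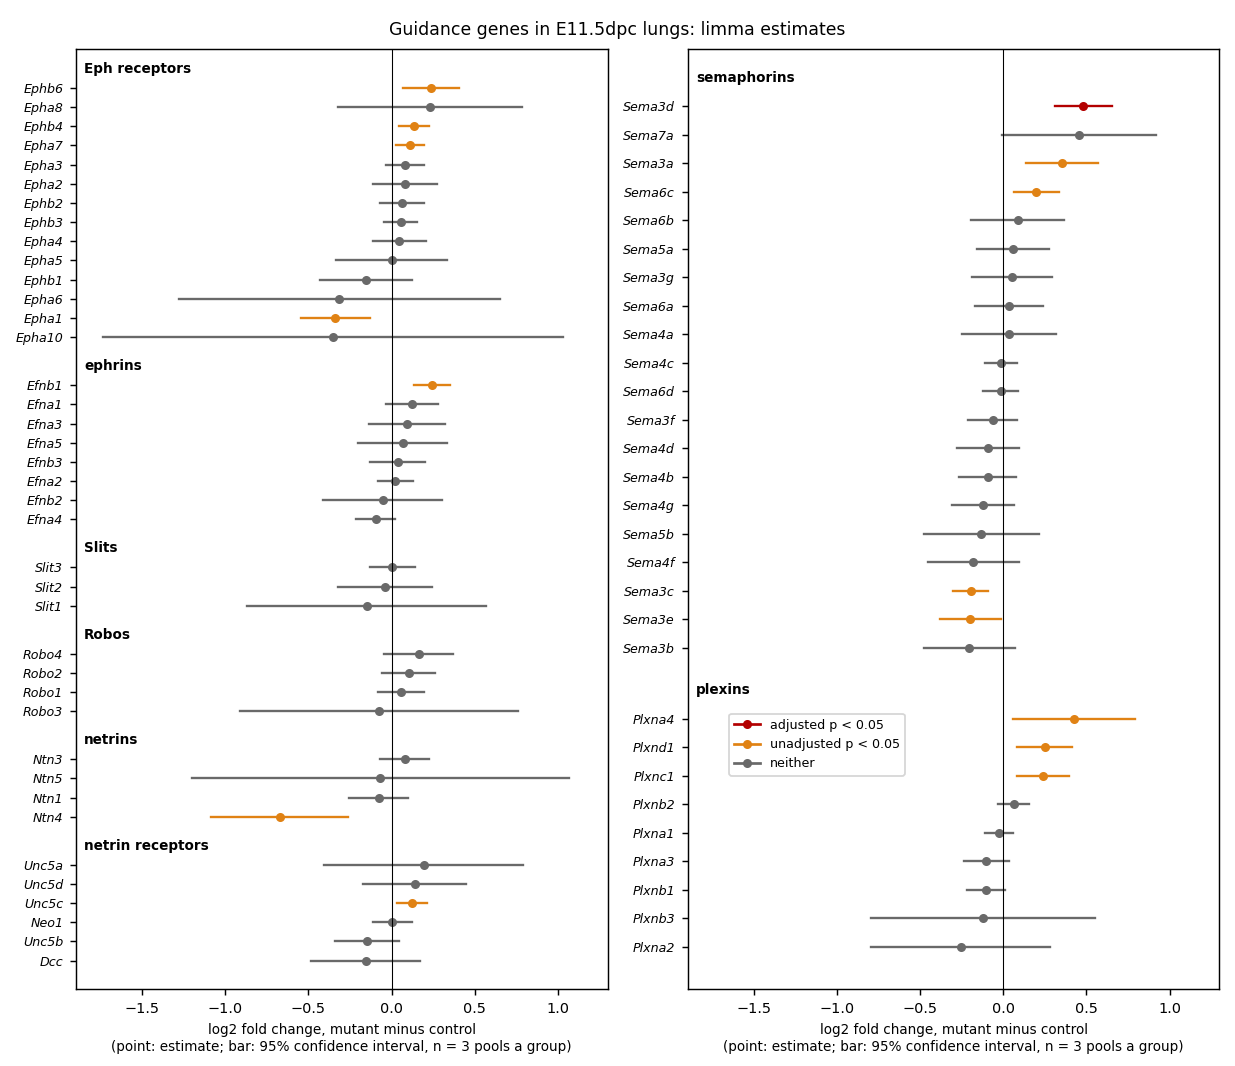
Log2 fold change (mutant minus control) of each of the 68 guidance genes by role, with points for the limma estimate and bars for its 95% confidence interval (3 pools a group). *Sema3d*, in red, is at 0.48, the 14 genes in orange had an unadjusted p under 0.05 only, and wide bars belong to genes of low level such as *Epha10* and *Ntn5* or of wide spread such as *Plxna2*.

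Of the 7 class 3 semaphorins, 4 had an unadjusted p under 0.05 (57.1%, against 13.6% of all genes tested), *Sema3d* and *Sema3a* with higher and *Sema3c* and *Sema3e* with lower values in the mutant pools, and only *Sema3d* passed the adjusted threshold. All 4 lie on chromosome 5, which was noticed after their values were seen and was not tested. On GRCm38, all on the plus strand, *Sema3d* spans chr5:12383385-12588948, *Sema3a* chr5:13125414-13602565, *Sema3e* chr5:14025276-14256689 and *Sema3c* chr5:17574281-17730268. The gaps between neighbours are 0.536 Mb, 0.423 Mb and 3.32 Mb. No exon of these 4 genes is shared with another annotated gene. The sequences that end at the annotated transcription starts of the first 3 are shown because these genes are neighbours that differed in direction. They are the 250 bases before the start in the RefSeq annotation of GRCm38.p6, plus strand, at chr5:12382916-12383165 for *Sema3d*, chr5:13396534-13396783 for *Sema3a* (a start that lies inside the longer GENCODE gene) and chr5:14025026-14025275 for *Sema3e*. Capitals mark matches, on either strand, to the 4 motifs searched: the GC box with the letters GGGCGG, the TATA box with the letters TATAAA, the box named for its letters CCAAT, and the E-box with the letters CACGTG.
Sema3d: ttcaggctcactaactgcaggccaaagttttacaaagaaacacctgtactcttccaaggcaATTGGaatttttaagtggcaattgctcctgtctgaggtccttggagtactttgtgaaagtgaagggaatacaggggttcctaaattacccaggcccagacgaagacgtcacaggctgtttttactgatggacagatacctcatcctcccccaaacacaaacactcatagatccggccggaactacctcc
Sema3a: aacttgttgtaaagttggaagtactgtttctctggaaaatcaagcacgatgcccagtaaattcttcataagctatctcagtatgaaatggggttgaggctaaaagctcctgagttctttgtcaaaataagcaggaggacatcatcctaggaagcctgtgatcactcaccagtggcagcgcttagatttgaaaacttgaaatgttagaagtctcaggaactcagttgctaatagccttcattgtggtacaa
Sema3e: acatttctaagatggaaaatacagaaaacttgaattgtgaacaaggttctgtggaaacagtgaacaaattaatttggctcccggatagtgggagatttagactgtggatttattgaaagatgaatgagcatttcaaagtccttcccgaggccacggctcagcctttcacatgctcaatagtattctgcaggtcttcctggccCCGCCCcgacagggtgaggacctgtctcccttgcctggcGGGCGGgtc
The *Sema3d* window holds 1 match to the CCAAT box, that of *Sema3e* 2 GC boxes and that of *Sema3a* none of the 4 motifs. Of 32851 promoter windows of this length, 33.8% hold the CCAAT box, 32.7% the GC box, 12.4% the TATA box and 6.02% the E-box. The GC content of the 3 windows was 46.8%, 40.8% and 48%, against a median of 52.4% for all windows. Of the 74 windows of the 58 guidance genes in the promoter table, 70.3% held a GC box, 28.4% the CCAAT box, 5.41% the E-box and 2.7% the TATA box. The GC content of these windows as a group was not computed.

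*Sema3d*, a secreted ligand known from endothelial and neural crest guidance, had normalized counts of 1588, 1682 and 1525 in the control pools and 2039, 2553 and 2132 in the mutant pools. Every mutant pool lay above every control pool, and mutant pool 2 was the highest. The mean rose from 1598 ± 79.0 (SD, n = 3) to 2241 ± 274 (SD, n = 3), a log2 fold change of 0.48 (95% interval 0.31 to 0.66, SE 0.08, limma adjusted p = 0.0385). The adjusted p was above the threshold when control pool 1 (0.245) or mutant pool 1 (0.0780), 2 (0.0725) or 3 (0.202) was left out, and in limma without its variance trend (0.243). In these fits the log2 fold change was between 0.38 and 0.55.

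*Sema3a*, which acts through Neuropilin-1 and A-class plexins and is known as a repellent of axons and of endothelial cells, had normalized counts of 2570, 2978 and 2171 in control and 3106, 3520 and 3149 in mutant pools. The groups did not overlap, but the controls were widely spread, with pool 3 low. The log2 fold change was 0.35 (95% interval 0.13 to 0.57), with a limma adjusted p of 0.154. This limma adjusted p was 0.0344 without control pool 2 and 0.0735 to 0.427 with any other 1 pool left out. *Sema3c*, a ligand of neuropilins known from the outflow tract and the vessels, was measured at 1399, 1384 and 1480 in control and 1228, 1238 and 1249 in mutant pools. All mutant pools lay below all control pools and close to each other. Its log2 fold change was -0.20 (95% interval -0.30 to -0.09, limma adjusted p = 0.118). *Sema3e*, which binds Plexin-D1 without a neuropilin, was at 293, 331 and 323 in control and 273, 278 and 271 in mutant pools. Here too the groups did not overlap, with a log2 fold change of -0.20 (95% interval -0.38 to -0.02, limma adjusted p = 0.325).

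A ratio of genes within a library does not depend on its size factor. The log2 ratio of the *Sema3d* to the *Sema3c* count was 0.18, 0.28 and 0.04 in the control pools and 0.73, 1.04 and 0.77 in the mutant pools, so that every mutant pool lay above every control pool. The mean ratio was 0.17 ± 0.12 (SD, n = 3) in control and 0.85 ± 0.17 (SD, n = 3) in mutant pools. The log2 ratio of *Sema3a* to *Sema3e* was 3.13, 3.17 and 2.75 in control and 3.51, 3.66 and 3.54 in mutant pools, again without overlap. These ratios were formed after the values of the 4 genes were seen and carry no test. Their separation adds no support. With *Sema3d* and *Sema3a* higher and *Sema3c* and *Sema3e* lower in every mutant pool, the ratios could not overlap. The other class 3 genes were *Sema3f* (1571 ± 147 in control and 1498 ± 53.1 in mutant pools), *Sema3g* (190 ± 12.7 and 197 ± 17.9) and *Sema3b* (154 ± 17.5 and 133 ± 6.70; SD, n = 3 for each), and in each of them the pools overlapped. The co-receptors of the class also overlapped. *Nrp1* had a log2 fold change of -0.07 (95% interval -0.29 to 0.14) and *Nrp2* one of 0.06 (95% interval -0.11 to 0.24).

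**Figure D4:**
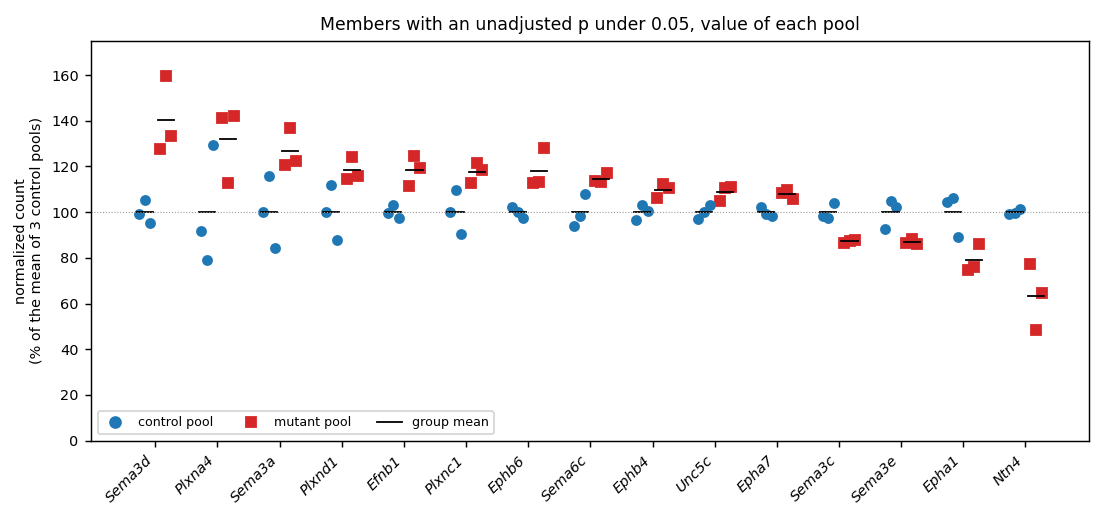
Normalized counts of the 15 guidance genes with an unadjusted p under 0.05 in each pool, as percent of the gene's control mean. There is a point for each of the 3 control and 3 mutant pools, and genes named for their level alone are not drawn. The 3 mutant pools of *Sema3d* lie above all its control pools, those of *Sema3c* and *Sema3e* lie below, and *Plxna4* overlaps.

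Among the 13 semaphorins of classes 4 to 7, which are mostly membrane-bound, none had an adjusted p under 0.05 in limma or in the tests on reads. An unadjusted p under 0.05 in limma was reached by 1 (7.69%, against 13.6% of all genes tested). It was *Sema6c*, a transmembrane ligand of A-class plexins, with normalized counts of 876, 915 and 1006 in control and 1058, 1054 and 1093 in mutant pools. The groups lay apart, by a narrow gap between control pool 3 and mutant pool 2. Its log2 fold change was 0.20 (95% interval 0.06 to 0.33, limma adjusted p = 0.192). The limma adjusted p was 0.0235 without control pool 3 and 0.224 to 0.513 with any other 1 pool left out. *Sema4c*, the semaphorin with the highest level per length (378 normalized counts per kilobase in control pools) and a ligand of Plexin-B2, was measured at 1728, 1742 and 1745 in control and 1755, 1666 and 1743 in mutant pools. The pools overlapped and the interval was narrow, with a log2 fold change of -0.01 (95% interval -0.11 to 0.08). Of its exon bases, 7.27% overlap an annotated gene on the other strand. *Sema7a*, a GPI-anchored ligand of Plexin-C1, was at 113 ± 32.6 (SD, n = 3) in control and 153 ± 25.4 (SD, n = 3) in mutant pools, with overlap. The 6 class 4 genes had log2 fold changes from -0.18 for *Sema4f* to 0.03 for *Sema4a*.

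Of the 9 plexins, 3 had an unadjusted p under 0.05 and higher values in the mutant pools (33.3%, against 6.67% of all genes tested). No plexin passed the adjusted threshold in limma. *Plxnd1*, the endothelial receptor of *Sema3e* and other class 3 ligands, had normalized counts of 8474, 9442 and 7439 in control and 9693, 10508 and 9793 in mutant pools. Every mutant pool was above every control pool, and control pool 3 was again the low one. The log2 fold change was 0.25 (95% interval 0.08 to 0.41, limma adjusted p = 0.185, DESeq2 adjusted p = 0.0371), beside a median of 0.16 over the 10 endothelial markers. Over all 6 pools these markers ran from -0.009 to 0.29. With 1 pool left out, the log2 fold change of *Plxnd1* ran from 0.16 without control pool 3 to 0.33 without control pool 2. The limma adjusted p in these 2 fits was 0.102 and 0.0417. The marker median was not computed with a pool left out. A link between *Plxnd1* and the markers was not tested. *Plxnc1*, the receptor of *Sema7a*, was at 994, 1090 and 900 in control and 1123, 1209 and 1177 in mutant pools. Its groups did not overlap, with a log2 fold change of 0.24 (95% interval 0.08 to 0.39, limma adjusted p = 0.181). *Plxna4*, which takes part in the response of axons to class 3 and class 6 semaphorins, was at 270, 232 and 382 in control and 416, 332 and 419 in mutant pools. Control pool 3 lay above mutant pool 2, and the log2 fold change of 0.42 had a wide interval (0.06 to 0.79, limma adjusted p = 0.297). It was 0.27 without control pool 2 and 0.62 without control pool 3, where the limma adjusted p was 0.0121. With any 1 pool but control pool 3 left out, the limma adjusted p was 0.36 to 0.633. *Plxnb2*, a receptor of class 4 semaphorins, was at 10526, 11362 and 10519 in control and 11094, 11269 and 11454 in mutant pools. These pools overlapped, with a log2 fold change of 0.06 (95% interval -0.03 to 0.15). Of the pair of *Plxnd1* and its ligand *Sema3e*, the receptor thus had its higher values in the mutant pools and the ligand its lower ones, neither past the adjusted threshold in limma. This pair was picked with the values known and was not tested. Of the other class 3 genes at an unadjusted limma p under 0.05, *Sema3d* and *Sema3a* were higher and *Sema3c* was lower in the mutant pools.

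Of the 8 ephrins, none passed the adjusted threshold in limma. *Efnb1*, a transmembrane ligand of EphB receptors found in mesenchyme and other tissues, had normalized counts of 2815, 2923 and 2752 in control and 3158, 3521 and 3372 in mutant pools. Every mutant pool lay above the controls. Its log2 fold change was 0.24 (95% interval 0.13 to 0.35), with an unadjusted p of 0.000567 and a limma adjusted p of 0.0710 (DESeq2 adjusted p = 0.00594), and it stood beside a median of 0.17 over the 15 mesenchymal markers. These markers ran from -0.08 to 0.64. *Efnb2*, the arterial partner of *Ephb4*, was at 2482, 1840 and 3285 in control and 2438, 2198 and 2507 in mutant pools. The mutant pools lay within the range of the controls, and the log2 fold change was -0.05 (95% interval -0.41 to 0.30). The 5 ephrin-A genes, ligands of EphA receptors that are anchored by a lipid, had log2 fold changes between -0.10 and 0.12. In *Efna4* all mutant pools (902 to 977) lay below the controls (995 to 1024), and in *Efna3* all mutant pools (184, 182 and 186) lay above them (182, 158 and 179), by less than 1 normalized count at the nearest pools. Exons of both genes overlap in part with annotated genes on the other strand (10.5% and 14.1% of bases).

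Among the 14 Eph receptors 4 had an unadjusted p under 0.05 (28.6%, against 13.6% of all genes tested). Of these, *Epha1* was lower and *Epha7*, *Ephb4* and *Ephb6* were higher in the mutant pools. *Epha1*, a receptor of epithelia, was at 433, 439 and 370 in control and 310, 315 and 356 in mutant pools. The groups lay apart, with control pool 3 and mutant pool 3 nearest to each other. The log2 fold change was -0.34 (95% interval -0.55 to -0.13, limma adjusted p = 0.153), beside a median of -0.44 over the 20 epithelial markers. These markers ran from -1.42 to 0.44. The limma adjusted p of *Epha1* was 0.0233 without control pool 3 and 0.203 to 0.398 with any other 1 pool left out. Of its exon bases, 6.01% overlap a gene on the other strand. *Ephb4*, a receptor of venous endothelium, was at 5426, 5771 and 5625 in control and 5964, 6289 and 6194 in mutant pools. All mutant pools lay above the controls, with a log2 fold change of 0.13 (95% interval 0.04 to 0.22, limma adjusted p = 0.188). *Ephb6*, a receptor without kinase activity, was at 421, 412 and 402 in control and 465, 466 and 528 in mutant pools. These groups did not overlap, and their log2 fold change was 0.24 (95% interval 0.07 to 0.40, limma adjusted p = 0.198). *Epha7*, a receptor of ephrin-A ligands, was at 3560, 3443 and 3423 in control and 3767, 3815 and 3679 in mutant pools. These groups also lay apart, at a smaller log2 fold change of 0.11 (95% interval 0.03 to 0.20, limma adjusted p = 0.241). The pools of the other 10 Eph receptors overlapped, and those with a mean of at least 10 had log2 fold changes between -0.15 for *Ephb1* and 0.23 for *Epha8*.

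In the netrin branch, *Ntn4* had the lowest log2 fold change of the 68 genes. Netrin-4 is a component of basement membranes that binds laminin. Its normalized counts were 90.4, 90.9 and 92.4 in control and 70.5, 44.1 and 58.9 in mutant pools. The controls were nearly equal and all mutant pools were lower, with a wide spread among them. The log2 fold change was -0.67 (95% interval -1.09 to -0.26), with an unadjusted p of 0.0045 and a limma adjusted p of 0.153, and no setting tried brought it past the threshold. *Ntn3*, the netrin with the highest level per length (342 normalized counts per kilobase in control pools), was at 1776, 1890 and 1579 in control and 1749, 1920 and 1859 in mutant pools, and *Ntn1*, the netrin known from axon guidance at the midline, was at 735 ± 18.7 (SD, n = 3) and 699 ± 77.5 (SD, n = 3). Both overlapped between the groups, with log2 fold changes of 0.08 (95% interval -0.07 to 0.23) and -0.08 (95% interval -0.26 to 0.10). Of the receptors, *Unc5c*, which serves repulsion, was at 6579, 6767 and 6986 in control and 7110, 7500 and 7510 in mutant pools. These groups lay apart, with a log2 fold change of 0.12 (95% interval 0.03 to 0.21, limma adjusted p = 0.219). *Neo1*, which also binds repulsive guidance molecules, was at 5940, 5807 and 6629 in control and 5909, 6346 and 6163 in mutant pools. It differed by less than the spread between pools, at a log2 fold change of 0.01 (95% interval -0.11 to 0.12). *Dcc* was at 102 ± 11.4 (SD, n = 3) in control and 91.4 ± 9.63 (SD, n = 3) in mutant pools, with overlap.

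None of the 3 Slits and 4 Robos had an unadjusted p under 0.05, against 13.6% of all genes tested, and in all 7 the pools overlapped. *Slit3* was at 3270, 3256 and 3830 in control and 3478, 3453 and 3428 in mutant pools, and *Robo1*, the Robo with the highest level per length, at 3420, 3281 and 3934 in control and 3703, 3613 and 3725 in mutant pools. In both genes the mutant pools lay inside the range set by the control pools. *Slit3* had a log2 fold change of 0.00 (95% interval -0.13 to 0.14) and *Robo1* one of 0.06 (95% interval -0.08 to 0.20). *Slit2* had a wider interval (-0.32 to 0.24), and *Robo4*, the endothelial Robo, a log2 fold change of 0.16 (95% interval -0.04 to 0.37). *Slit1* and *Robo3*, which are better known from neurons, were low, at 27.0 ± 6.40 and 24.9 ± 8.94 for *Slit1* and 13.3 ± 6.51 and 11.9 ± 2.76 for *Robo3* (SD, n = 3), and a difference could not be resolved at these levels (95% intervals of the log2 fold change -0.87 to 0.57 and -0.91 to 0.76).

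Lists of genes that work with these families were read from the same limma test. Of 16 co-receptors and other ligands none passed the adjusted threshold, and 2 had higher and 2 lower values at an unadjusted p under 0.05 (12.5% each, against 6.67% and 6.89% of all genes tested). These were *Flrt1* (log2 fold change 0.37) and *Flrt2* (0.24), whose products bind Unc5 receptors, the cell adhesion gene *Nrcam* (-0.18) and the glypican *Gpc1* (-0.15). *Flrt2* had normalized counts of 2994, 2789 and 3218 in control and 3646, 3387 and 3550 in mutant pools, so that its pools did not overlap. Of 47 intracellular effectors 2 passed the adjusted threshold, against 0.501% of all genes tested, and both fell. *Mical2*, an oxidoreductase of the family that links plexins to actin disassembly, was at 721, 657 and 673 in control and 535, 502 and 497 in mutant pools, which is a log2 fold change of -0.42 (95% interval -0.56 to -0.27, limma adjusted p = 0.0358). *Dpysl5*, of the collapsin response mediator family that acts in the response of axons to semaphorins, was at 850, 786 and 906 in control and 659, 590 and 636 in mutant pools, which is a log2 fold change of -0.43 (95% interval -0.59 to -0.27, limma adjusted p = 0.0385). In both genes the groups were far apart compared with their spread. At an unadjusted p under 0.05 alone, *Rras*, *Arhgef11*, *Arhgef15*, *Evl*, *Sdcbp* and *Limk1* had log2 fold changes between 0.11 and 0.24 and *Crmp1* one of -0.86. In all, 12.8% of the effectors had higher and 6.38% lower values at this p, against 6.67% and 6.89% of all genes tested, and 70.2% were within 0.1 of no change, against 49.8%. With control pool 1 or any 1 mutant pool left out, or without the variance trend, neither list had a gene past the adjusted threshold.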

How the data were processed

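RNA from 6 pools of whole lungs at E11.5dpc was sequenced by the study. Groups and replicate numbers came from the labels of the samples. The authors deposited 1 table whose signal values are normalized counts (reads scaled by each library's size factor), beside their own log2 fold changes, a test score and p-values. Those columns of the deposited table were not used. Per the labels, the submitters' processing notes name Trim Galore, HISAT2, featureCounts, DESeq2 and mm10, without versions. Whether counting used strand is not given in the sources used here.

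Where a gene reached 1 in 3 or more libraries, its log2(normalized count + 1) was compared with limma 3.58.1 in R 4.3.3 (lmFit, eBayes with its variance trend, two-sided, no block). Adjustment was by Benjamini and Hochberg over all tested genes, with a threshold of 0.05. An exact permutation test of 3 pools against 3 cannot go below 0.1 and was not used for calls. Within a tolerance of 0.02, 100% of the values were whole multiples of 1 step per library, and edgeR 4.0.16 (quasi-likelihood, TMM), which called 79 genes, and DESeq2 1.42.0 were run on the recovered reads as alternatives. The other alternatives were limma without the trend, upper-quartile scaling, a pseudocount of 0.1, no filter, values of at least 10 in every library, a replicate block and leaving out each pool. The test was tried on simulated data.

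Exon lengths, positions and overlaps came from GENCODE M21 (GRCm38), in which all 68 symbols were found, and promoter sequences from RefSeq (GRCm38.p6). Named with every pool's value are guidance genes at an adjusted p under 0.05, those at an unadjusted p under 0.05 with a mean of at least 10, and the member of each role with the highest level per length. Genes named outside this rule were chosen after their values were seen. The members and lists were chosen with earlier results of these data known.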

Additional observations from a re-analysis of the deposited data

How the results depend on the processing

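The count of guidance genes past the adjusted threshold was 1 in limma and also with upper-quartile scaling, a pseudocount of 0.1, no filter, a filter of at least 10 in every library, the replicate block and edgeR, and in each of these fits it was *Sema3d*. It was 0 in limma without the trend and 4 in DESeq2, and leaving out 1 pool at a time gave 0 to 5. The 5 without control pool 3 were *Sema3d*, *Efnb1*, *Epha1*, *Plxna4* and *Sema6c*, in a fit where 468 of all 16993 genes tested passed. The 3 without control pool 2 were *Sema3d*, *Sema3a* and *Plxnd1*, in a fit where 147 of all 16889 genes tested passed. Over all genes the count was 86, with 8 without the trend, 278 in DESeq2 and 1 to 468 with 1 pool left out. The effector and co-receptor lists had 2 genes, 0 without the trend and 0 to 3 with 1 pool left out. At an unadjusted p under 0.05, leaving out 1 pool gave 11 to 24 guidance genes and 10 to 21 genes of these lists, with the 24 found without control pool 2. Over all genes the same fits gave 1566 to 2880. The cause of these differences was not tested.

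Of the 21 genes named by rule, those near no change crossed 0. *Slit3* was at -0.00053 in edgeR and between -0.035 and 0.082 with 1 pool left out, *Neo1* between -0.032 and 0.063, and *Sema4c* between -0.029 and 0.0091. Of the other 47 guidance genes, 23 changed sign in at least 1 of 14 fits and 0 passed the adjusted threshold in any. With the replicate number as a block, 1 guidance gene and 71 genes in all passed the adjusted threshold. An unadjusted p under 0.05 was then reached by 16 guidance genes and 2324 genes in all. Deviations of same-numbered control and mutant pools correlated at -0.004, 0.19 and 0.04 over 14584 genes, and the labels used here do not say that a number marks a shared litter or batch, so the numbers were not treated as pairs. Depth limited the values of *Epha6*, *Epha10* and *Ntn5*, all under 10 on average.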

Other observations

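The spread among the control pools was wide for several guidance genes and wider than among the mutant pools. *Plxna2*, a receptor of class 3 and class 6 semaphorins, was at 1116, 800 and 1838 normalized counts in the control pools and 1160, 813 and 1019 in the mutant pools, and *Unc5a* was at 237, 268 and 109 in control and 205, 227 and 222 in mutant pools. The semaphorin effector *Crmp1*, a relative of *Dpysl5*, was at 1006, 588 and 1590 in control and 581, 498 and 543 in mutant pools, without overlap, but the lowest control pool was nearly level with the highest mutant pool. Control pool 3 was at the end of the control range in each of these genes. The root mean square deviation from the group mean over the guidance genes with a mean of at least 10 was 0.21 on the log2 scale in control pool 3, 0.18 in control pool 2 and 0.12 in control pool 1, and it was 0.12, 0.15 and 0.08 in mutant pools 1, 2 and 3. Over all 14584 genes with such a mean control pool 3 stood at 0.23, control pool 2 at 0.22 and control pool 1 at 0.13, the same order, and the mutant pools ranged from 0.14 to 0.18. The genes named here were chosen after their values were seen.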
